A study of Homo sapiens with 10 samples.

Results

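The genes described here are 31 NF-kappaB targets and signalling genes, chemokines and cytokines, taken from a fixed list by their platform annotation symbols. The list does not mark which of its chemokines and cytokines are NF-kappaB targets. Of the 31, 30 were measured, each by its brightest probe, out of 17752 genes tested. BIRC3, an inhibitor of apoptosis, had no probe with a single symbol and is not analysed here. RNA came from NCI-H441, an established human lung adenocarcinoma cell line. Cells on 5 control arrays received only the DMSO vehicle (0.1%), and cells on 5 treated arrays received 1 µM of the compound CLEFMA in the same amount of vehicle; both lasted 12 h. The labels give differing numbers of cultures behind the 5 arrays of a group, 4 wells in one protocol and 3 biological replicates in another, so the p-values measure the spread between these arrays, which may be technical.

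NF-kappaB is a family of dimeric transcription factors that inhibitor proteins hold in the cytoplasm until the IkappaB kinase complex marks those inhibitors for destruction. Freed dimers enter the nucleus and turn on chemokines, cytokines, adhesion molecules and survival genes, together with their own inhibitors, which close the loop. In the lung, epithelial cells use this program to call neutrophils and monocytes, and many lung carcinomas keep part of it active without an outside stimulus.

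NF-kappaB dimers bind short sites near the starts of many of these genes. Windows from 250 bases before to 50 bases after annotated starts were read from RefSeq (GRCh38.p14), which held 25 of the 31 members. No window was used for CCL2, CX3CL1, CXCL16, MMP9, NFKBIE or RELB. Both strands were searched for a longer kappaB motif of 3 G, any 2 bases, 3 T and 2 C, in that order, and for the shorter GGAATTTCC, which overlaps the longer one where the free bases are both A. The longer motif was present in 13 of the 25 members against 1.91% of all 35116 windows, the shorter in 8 against 0.461%, and either in 15 against 2.23%. Some members have several windows, and counted by gene the 2 motifs were present in 2.33% and 0.56% of all genes. The list was drawn up as NF-kappaB targets, chemokines and cytokines, so these counts describe it and were not tested. In CXCL1, CXCL2, CXCL3 and CXCL5 the longer motif began 78 to 91 bases before the start, as the plot of motif positions shows. A match is not a shown binding site.

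Windows are printed for 5 members: the one gene of the list that passed the test, a cytokine whose groups did not overlap, and 3 textbook targets that did not pass. They are CCL26 (chr7:75789697-75789996, minus strand), IL6 (chr7:22726950-22727249, plus strand), CXCL8 (chr4:73740319-73740618, plus strand), TNFAIP3 (chr6:137867009-137867308, plus strand) and NFKBIA (chr14:35404700-35404999, minus strand). Each is written 5′ to 3′ in the direction of the gene, with matches of either motif in capitals. The CCL26 window holds neither set of letters.
CCL26: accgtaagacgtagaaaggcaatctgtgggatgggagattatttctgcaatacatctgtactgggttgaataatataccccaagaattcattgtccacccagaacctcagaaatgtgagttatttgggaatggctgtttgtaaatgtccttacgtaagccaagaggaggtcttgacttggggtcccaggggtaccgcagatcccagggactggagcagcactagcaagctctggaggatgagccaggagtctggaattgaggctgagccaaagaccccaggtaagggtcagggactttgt
IL6: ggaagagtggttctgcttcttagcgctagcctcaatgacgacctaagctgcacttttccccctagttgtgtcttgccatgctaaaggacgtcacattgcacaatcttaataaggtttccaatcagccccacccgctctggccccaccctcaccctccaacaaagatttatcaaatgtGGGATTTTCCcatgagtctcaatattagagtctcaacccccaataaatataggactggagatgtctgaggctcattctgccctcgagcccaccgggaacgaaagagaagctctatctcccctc
CXCL8: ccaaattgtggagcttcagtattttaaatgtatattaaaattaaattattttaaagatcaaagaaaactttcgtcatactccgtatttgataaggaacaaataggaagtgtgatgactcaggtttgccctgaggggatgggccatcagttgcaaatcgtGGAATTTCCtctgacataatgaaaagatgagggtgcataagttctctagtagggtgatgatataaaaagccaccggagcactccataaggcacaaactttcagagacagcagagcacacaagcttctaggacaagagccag
TNFAIP3: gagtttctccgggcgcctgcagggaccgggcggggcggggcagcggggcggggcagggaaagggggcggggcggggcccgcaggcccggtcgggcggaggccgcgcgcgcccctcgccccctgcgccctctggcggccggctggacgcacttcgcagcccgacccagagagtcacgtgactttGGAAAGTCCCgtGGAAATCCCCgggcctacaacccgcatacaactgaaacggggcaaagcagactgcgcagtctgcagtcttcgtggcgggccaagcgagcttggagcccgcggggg
NFKBIA: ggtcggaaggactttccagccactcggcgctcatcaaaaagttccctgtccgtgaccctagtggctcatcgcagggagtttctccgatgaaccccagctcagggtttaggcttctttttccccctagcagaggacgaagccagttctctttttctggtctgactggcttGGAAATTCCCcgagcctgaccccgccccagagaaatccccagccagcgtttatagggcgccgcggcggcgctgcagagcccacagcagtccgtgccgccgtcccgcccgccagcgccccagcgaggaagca

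**Figure D1:**
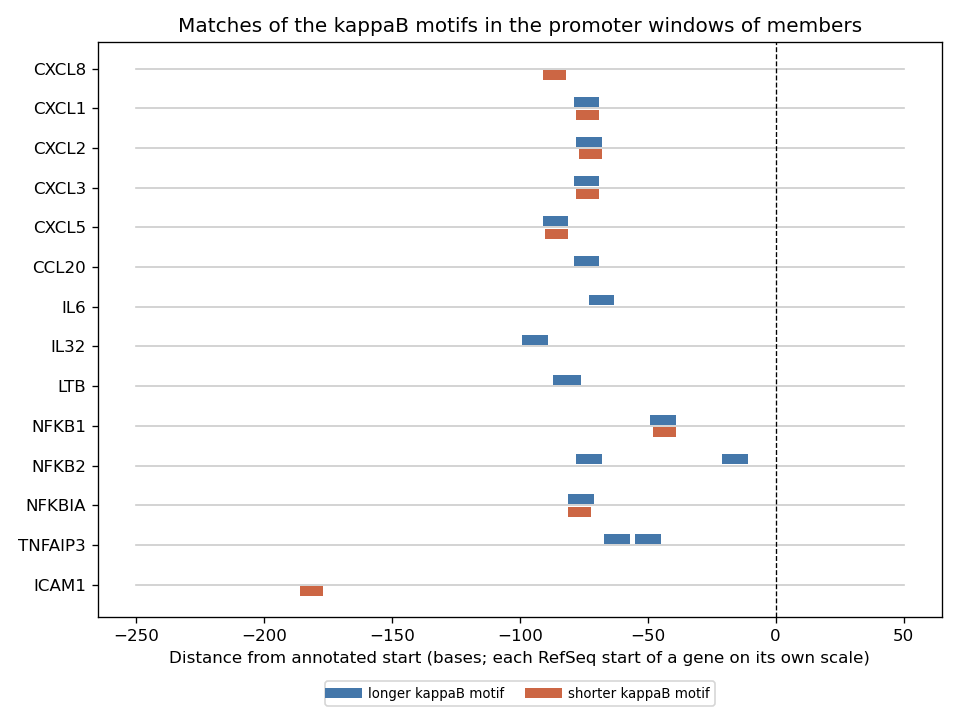
Positions of the longer and the shorter kappaB motif in the windows of the 14 measured members that hold either, as distance in bases from the annotated start (dashed line); grey lines are the windows, and windows of a gene with several starts are overlaid. Most matches lie within 100 bases before the start, and that of ICAM1 begins 186 bases before it.

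Treated and control arrays were compared to see which of these genes the compound changed in 12 h. CCL26, which encodes eotaxin-3, a chemokine that attracts eosinophils through the receptor CCR3, rose 1.70-fold (95% interval 1.49 to 1.94). This fold is of values with 3 units added, which understates the change. On the deposited values as they stand its log2 difference was 1.02. CCL26 was the only member that passed, and the other 29 did not pass in either direction. Levels are log2 of the deposited linear value plus 3 units, after quantile normalization, and a probe was taken as above background over 2.20 on that scale before normalization. Groups were compared with limma, two-sided, and p-values were adjusted by Benjamini-Hochberg across the 17752 genes, with 0.05 as the limit. By that rule 1 of 30 members was higher (3.33%) against 0.265% of all genes, and 0 were lower against 0.0338%. At an unadjusted p under 0.05, 3 members were higher (10%) and 0 lower, against 4.48% of all genes in each direction. The median difference was −0.02 over the 30 members, 13 positive and 17 negative, and 0.01 over all genes. These are bulk samples, in which fewer cells making a transcript and less of it per cell cannot be told apart.

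**Figure D2:**
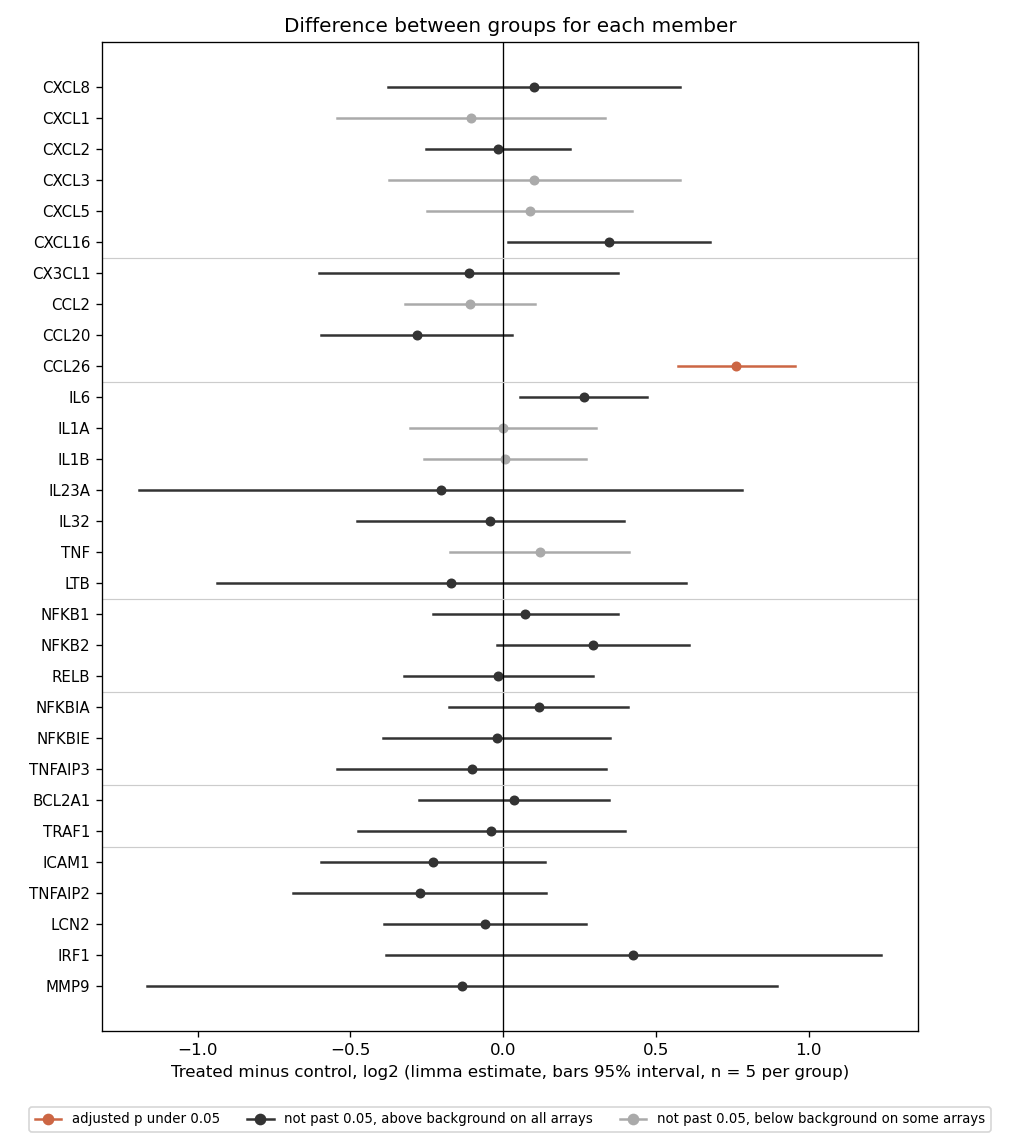
Treated minus control difference of each of the 30 measured members on the log2 scale, with its 95% interval from limma (5 arrays per group), ordered by role; grey lines part the roles. Only the interval of CCL26 belongs to a gene that passed, and the intervals of IL23A, IRF1 and MMP9 reach beyond a 2-fold change.

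CCL26 stood at 3.10, 3.12, 3.14, 3.29 and 2.98 on controls 1 to 5 and at 3.85, 3.77, 3.86, 4.03 and 3.94 on treated 1 to 5. Every treated array lay above every control array, by at least as much as the whole range of the controls. The difference was 0.76 ± 0.09 (SE, n = 5 per group; limma adjusted p = 0.00205). It passed in all 23 alternatives tried, with differences from 0.47 to 1.02, so its size depends on the offset while the call did not. CCL26 is measured by 1 probe. It lies low on this scale, where the added offset understates a change.

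The remaining chemokines outside the CXC family gave no call. CX3CL1, or fractalkine, a membrane-bound chemokine of epithelium and endothelium, stood at 7.29, 7.08, 5.88, 7.09 and 7.15 on the controls and between 6.64 and 6.88 on the treated arrays. Control 3 was below every other array, and the other 4 controls were above every treated array. The difference was −0.11 ± 0.22 with control 3 and −0.37 ± 0.09 without it (limma adjusted p = 0.883 and 0.178). CCL20, which attracts dendritic cells and lymphocytes through CCR6, ranged from 4.12 to 4.91 on the controls and from 4.03 to 4.41 on the treated arrays, a difference of −0.28 ± 0.14. CCL2, the monocyte chemoattractant, was above background on 0 of 10 arrays, so no fold is given.

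The CXC chemokines that call neutrophils through the receptor CXCR2 were measured at different depths above background. CXCL8, or interleukin-8, stood at 9.13, 8.74, 9.08, 8.74 and 7.99 on controls 1 to 5 and at 8.81, 8.90, 9.04, 9.15 and 8.27 on treated 1 to 5. The groups overlapped, and array 5 was the lowest in each of them. The difference was 0.10 ± 0.22, with an interval of 0.77-fold to 1.49-fold, and a second CXCL8 probe differed by −0.04. CXCL2 differed by −0.02 ± 0.11, with an interval of 0.84-fold to 1.16-fold. CXCL1 was above background on 9 arrays and differed by −0.11 ± 0.20. CXCL3 and CXCL5 were above background on only 4 and 3 arrays, so their fitted differences depend on the offset: 0.10 and 0.09 with it, and −2.24 and 3.03 on the deposited values as they stand, none past the threshold. CXCL1, CXCL2 and CXCL3 are close in sequence, so which of them a probe bound is uncertain.

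CXCL16, a membrane-bound chemokine and scavenger receptor that binds CXCR6, stood at 6.77, 6.59, 5.93, 6.69 and 6.54 on the controls and at 6.87, 7.08, 6.83, 6.85 and 6.62 on the treated arrays. Treated 5 lay within the range of the controls, and the 4 other treated arrays lay above it. The difference of 0.35 ± 0.15 did not pass (limma unadjusted p = 0.0415, adjusted p = 0.538) and was 0.20 without control 3.

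Among the cytokines, IL6, the main inducer of the acute phase response, came nearest to a call. Its levels were 3.09, 3.06, 2.92, 3.12 and 3.10 on the controls and 3.18, 3.36, 3.36, 3.54 and 3.16 on the treated arrays. All treated arrays were above all controls, treated 5 by the least. The difference of 0.26 ± 0.09, or 1.20-fold (interval 1.04 to 1.39), did not pass (limma unadjusted p = 0.0167, adjusted p = 0.451). IL6 also lies low on this scale, so the offset understates its change. On the deposited values as they stand its difference was 0.4 (limma adjusted p = 0.539). CCL26 and IL6 were the 2 members whose groups did not overlap with treated above control, 6.67% of the 30 against 1.46% of all genes, and no member had groups apart in the other direction, against 1.04%.

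IL23A, the subunit that pairs with the shared chain of interleukin-12 to form interleukin-23, stood at 6.00, 6.32, 5.32, 6.15 and 4.53 on controls 1 to 5 and at 6.01, 5.77, 5.86, 5.93 and 3.72 on treated 1 to 5. Array 5 was the lowest of each group by a wide margin. The difference was −0.20 ± 0.45, and −0.05 ± 0.19 without both arrays numbered 5. LTB, lymphotoxin beta, a membrane cytokine that signals through the noncanonical arm of the pathway, ranged from 4.34 to 5.85 on the controls and from 3.75 to 5.57 on the treated arrays, again with array 5 lowest in each group. It differed by −0.17 ± 0.35, and a second probe by 0.04. IL32, an inflammatory cytokine found in humans but not in mice, differed by −0.04 ± 0.20, and a second probe, above background on 8 arrays, by 0.11. The classic triggers of the pathway were at or near background: IL1B was above it on 0 of 10 arrays, IL1A on 1 treated array and TNF on 2 treated arrays. No fold is given for these 3.

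The subunits of NF-kappaB itself did not pass. NFKB1, the precursor of the p50 subunit of the canonical dimer, differed by 0.07 ± 0.14 (interval 0.85-fold to 1.30-fold). NFKB2, the precursor of the p52 subunit of the noncanonical dimer, ranged from 3.37 to 4.12 on the controls, with the highest value on control 3, and from 3.72 to 4.08 on the treated arrays. Its difference was 0.29 ± 0.14 (limma adjusted p = 0.575) and 0.42 without control 3, while a second probe above background on all arrays differed by 0.11. RELB, the partner of that subunit, differed by −0.02 ± 0.14.

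The inhibitors that NF-kappaB induces as feedback, among its fastest targets, had small differences. NFKBIA, which encodes IkappaB alpha, stood at 9.26, 9.31, 8.64, 9.36 and 9.23 on the controls and at 9.18, 9.47, 9.25, 9.27 and 9.21 on the treated arrays. Control 3 was the lowest of all 10, and the other 4 controls lay within the range of the treated arrays. The difference was 0.12 ± 0.13, with an interval of 0.88-fold to 1.33-fold, and −0.01 ± 0.08 without control 3. TNFAIP3, which encodes the ubiquitin-editing enzyme A20 that ends signalling, differed by −0.10 ± 0.20. NFKBIE, which encodes IkappaB epsilon, differed by −0.02 ± 0.17.

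Survival and effector targets also gave no call. BCL2A1, a BCL2 family protein that blocks apoptosis, differed by 0.04 ± 0.14, and TRAF1, an adaptor of tumor necrosis factor receptors, by −0.04 ± 0.20. ICAM1, the adhesion molecule that leukocytes grip, differed by −0.23 ± 0.17, and TNFAIP2, a target first found in endothelial cells given tumor necrosis factor, by −0.27 ± 0.19. LCN2, lipocalin-2, which withholds iron from bacteria, differed by −0.06 ± 0.15. IRF1, an interferon regulatory factor, stood at 3.77 on control 3 and between 5.53 and 6.06 on the other 9 arrays. Its difference of 0.43 ± 0.37 was −0.01 ± 0.12 without control 3. MMP9, a gelatinase that degrades basement membrane, stood at 6.20, 6.54, 6.13, 6.57 and 4.03 on controls 1 to 5 and at 6.19, 6.04, 6.06, 6.04 and 4.48 on treated 1 to 5. As for IL23A, both arrays numbered 5 were far below the rest. The difference was −0.13 ± 0.47, and −0.28 ± 0.12 without both arrays numbered 5 (limma adjusted p = 0.933 and 0.505).

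A p that misses the threshold does not show that a gene was unaffected, and the intervals bound what these arrays allow. On the scale with the offset, 20 of the 23 members above background on all arrays had a 95% interval within a 2-fold change in either direction. For 12 of the 23 it lay within a 1.5-fold change. The exceptions at 2-fold, in this fit without a block for replicate number, were IL23A, IRF1 and MMP9, whose values on 1 or 2 arrays set the spread. With such a block the SEs of IL23A and MMP9 were smaller (0.18 and 0.15), and that of IRF1 was 0.34. The other 7 members, CXCL1, CXCL3, CXCL5, CCL2, IL1A, IL1B and TNF, were below background on 1 or more arrays, where an interval on this scale understates the change it allows. The offset also compresses changes of dim members above background. CCL26, counted here within 2-fold, differed by 1.02 ± 0.11 in log2 on the deposited values as they stand.

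**Figure D3:**
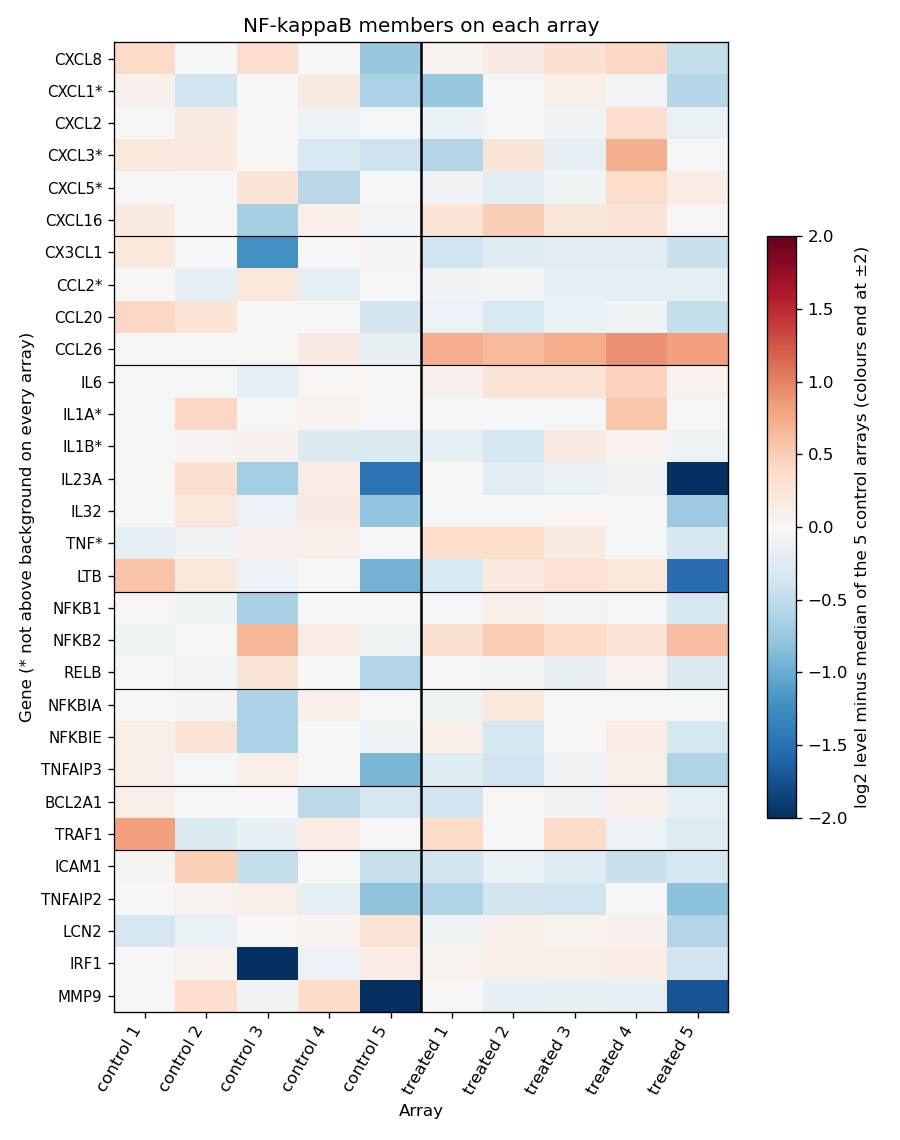
Level of each of the 30 measured members on each of the 10 arrays, as the log2 difference from the median of the 5 controls; horizontal lines part the roles and the vertical line parts the groups. CCL26 is higher across the treated arrays, control 3 is low for IRF1 and CX3CL1, and both arrays numbered 5 are low for IL23A, LTB and MMP9.

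Several members were low on the same replicate number in both groups. Of the 23 members above background on all arrays, 9 were the lowest of their group on both control 5 and treated 5 (39.1%), against 8.33% of the 11182 genes above background on all arrays. No member was the highest on both, against 11.1% of those genes. The 9 were CXCL8, CCL20, IL23A, IL32, LTB, RELB, TNFAIP3, TNFAIP2 and MMP9. Against the median of the other 4 arrays of its group, MMP9 differed by −2.34 on control 5 and by −1.57 on treated 5 on the log2 scale. IL23A differed by −1.55 and −2.18, LTB by −1.05 and −1.73, and CXCL8 by −0.92 and −0.70. For these 4 genes each value is larger in size than the treated minus control difference. NFKBIA differed by only −0.05 on each of the arrays. CCL26 differed by −0.15 on control 5 and by 0.09 on treated 5, and its treated minus control difference without both arrays numbered 5 was 0.72 ± 0.10 (limma adjusted p = 0.0139). The labels do not say what a replicate number stands for, so this was described and not tested, and the pattern was seen in the values first.

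**Figure D4:**
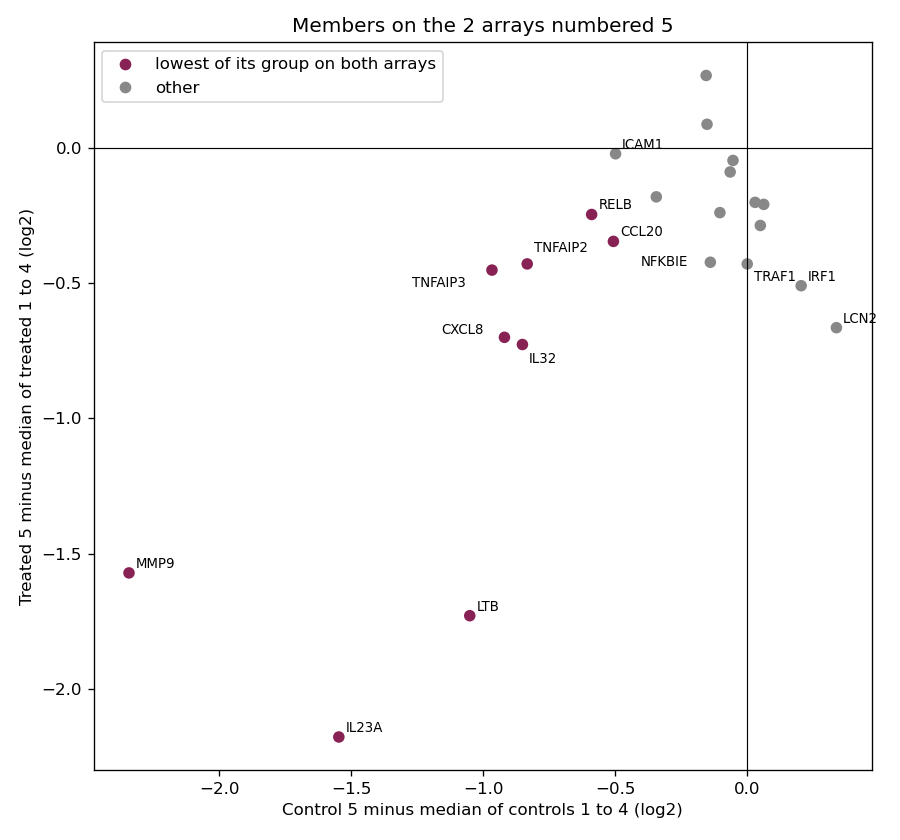
Each point is 1 of the 23 members above background on all arrays: its level on control 5 minus the median of controls 1 to 4 (horizontal, log2) and on treated 5 minus the median of treated 1 to 4 (vertical, log2). The 9 members that were the lowest of their group on both arrays lie in the lower left, with MMP9, IL23A and LTB farthest from 0.

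Control 3 departed in another set of members. It was the lowest control for 8 of the 23, among them IRF1, CX3CL1, CXCL16, NFKB1, NFKBIA and NFKBIE, against 38.2% of all genes above background on all arrays. A share of 8 in 23 is close to that background. The mean correlation of control 3 with the remaining arrays was 0.978, below the 0.986 to 0.990 of the others. Treated 5 was the lowest treated array for 17 of the 23 members against 28.8% of those genes.

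**Figure D5:**
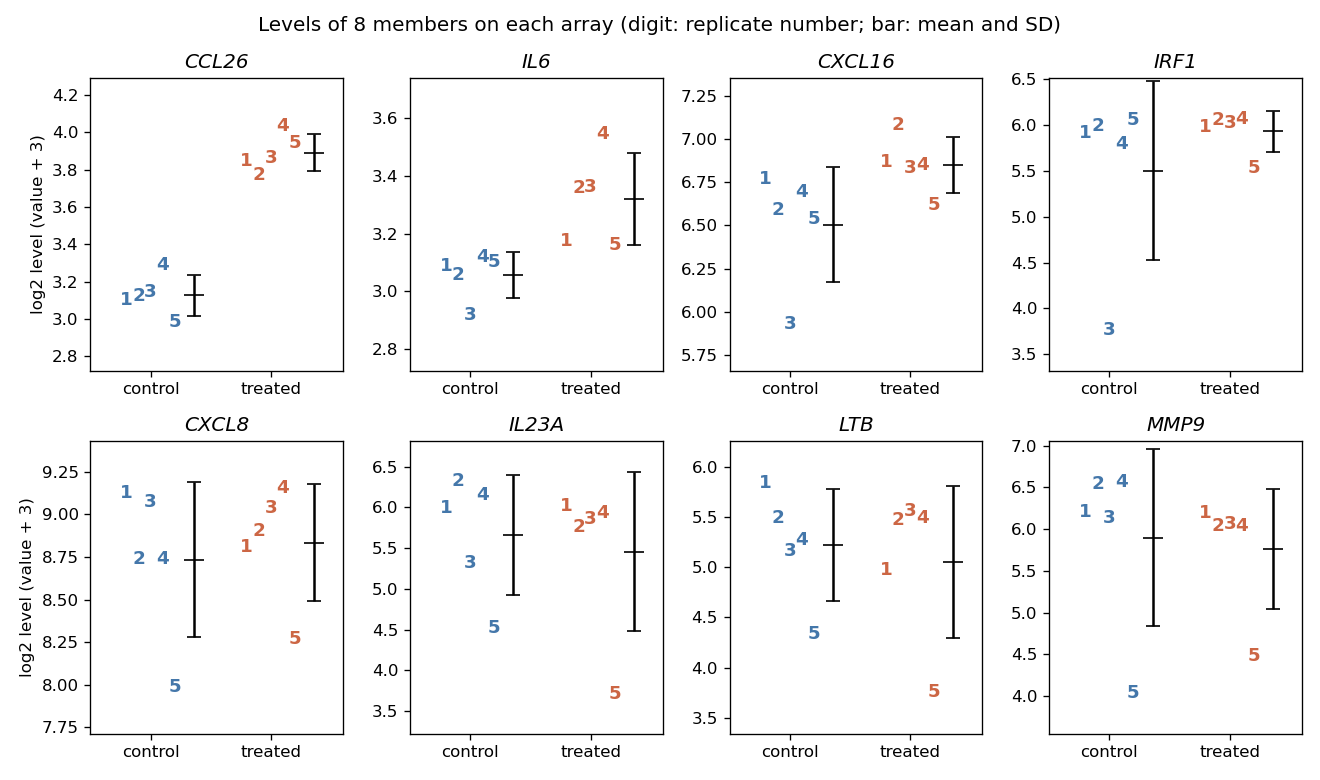
Levels of 8 members on each array (log2 of the value plus 3; each panel has its own axis, which does not start at 0), with replicate numbers as marks and the mean and SD of the 5 arrays as bars. In CCL26 and IL6 the groups do not overlap, and in CXCL8, IL23A, LTB and MMP9 number 5 is the lowest of each group.

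The machinery upstream of NF-kappaB targets was followed through 57 receptors, adaptors, kinases, NF-kappaB and IkappaB proteins and chemokine receptors that are not members. Of the 57, 52 were measured. Of the 52, 1 was higher (IKBKG) and 0 were lower by the adjusted test in limma, against 0.265% and 0.0338% of all genes. At an unadjusted p under 0.05, 2 were higher and 7 lower, against 4.48% of all genes in each direction. IKBKG, which encodes NEMO, the regulatory subunit of the IkappaB kinase, stood between 6.77 and 7.59 on the controls and between 8.03 and 8.23 on the treated arrays, without overlap. It rose 1.75-fold (log2 difference 0.81 ± 0.14, limma adjusted p = 0.0322). The call held in 10 of 23 alternatives, with differences from 0.68 to 0.90. It was lost without any 1 of controls 1, 2 and 4 or of treated 1 to 5, with adjusted p-values of at most 0.121. It was also lost with an offset of 1, on the deposited values, with no filter and without both arrays numbered 5 (limma adjusted p = 0.0787, 0.0839, 0.0981 and 0.0573). IKBKG has a near-identical pseudogene copy in the genome and 1 probe here, so which transcript was bound is uncertain.

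No receptor passed, but 3 had all treated arrays below all controls, and they are named here after their values were seen. IL1R1, the signalling receptor of interleukin-1, stood between 4.86 and 5.44 on the controls and between 4.22 and 4.65 on the treated arrays (difference −0.57 ± 0.13, limma adjusted p = 0.141). IL1RAP, its coreceptor, stood between 5.20 and 5.99 and between 4.36 and 5.08 (−0.67 ± 0.16, limma adjusted p = 0.196). The other 2 IL1RAP probes, above background on 7 and 10 arrays, differed by −0.811 and −0.305. IL6ST, the signal-transducing chain gp130 of the interleukin-6 receptor, stood between 6.48 and 7.32 and between 6.31 and 6.43 (−0.44 ± 0.14, limma adjusted p = 0.391). The other 2 IL6ST probes, above background on 6 and 0 arrays, differed by −0.56 and −0.057. IL1R1, IL1RAP and IL6ST are 5.77% of the 52 components against 1.04% of all genes with treated below control without overlap. In the other direction 2 components had groups apart, 3.85% against 1.46% of all genes: IKBKG and TRADD, an adaptor of the tumor necrosis factor receptor, which differed by 0.17 ± 0.09 (limma adjusted p = 0.599).

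As a check of the label, 11 of 11 measured markers of lung adenocarcinoma epithelium were above background on all arrays. Their summed linear level was 17000 to 18800 table units on the controls and 15500 to 18400 on the treated arrays. They differed by a median of −0.16, with 10 negative and 1 positive, against 0.01 over all genes. Of 11 leukocyte markers, 4 were above background on all arrays (MS4A1, CD79A, CD14 and LYZ), while ITGAM was above it on none. The summed level of the leukocyte markers was 29.3 to 52.9 on the controls and 45.6 to 65.1 on the treated arrays. Of 9 fibroblast markers, 4 were above background on all arrays (COL1A1, DCN, LUM and PDGFRA) and COL3A1, FAP and THY1 on none. LUM and COL1A1 were the brightest of them, with control means of 7.28 and 6.26. The summed level of the fibroblast markers was 166 to 326 on the controls and 176 to 231 on the treated arrays. Of 4 endothelial markers, 2 were above background on all arrays (PECAM1 and KDR) and CDH5 on none, with sums of 26.7 to 43.6 and 19.4 to 40.5. None of the tested markers of any of the lists passed, and their part in the differences above was not tested. Over all probes, 49.1% to 53.7% were above background on an array, and arrays correlated at 0.973 to 0.993.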

How the data were processed

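Total RNA from 10 samples was measured on Illumina HumanWG-6 v3.0 bead arrays, per the labels. The values the authors deposited are log10 signals of 48803 probes; no source used here states the software, the background step, the normalization or the log base. Base 10 was inferred from the range, since the highest value would lie only 12-fold above the background level in base 2 and 36.1-fold in base e, against 3860-fold in base 10. A second deposited table of scanner signal has 10 columns that match no sample by name and was not used. Among the values used, 24.2% to 25.2% of probes sat at each array's lowest value.

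Values were turned to linear units, 3 units were added, and log2 was quantile normalized over all probes. Probes with a mean over the 25th percentile of all values were kept (44606). A log10 value above 0.2 was taken as above background. Symbols came from the platform annotation, updated through Entrez identifiers (27578 probes with 1 symbol, 27541 of them matched, 13 with several, 21212 not listed). The brightest probe stood for a gene. The comparison used lmFit and eBayes of limma 3.58.1 (R 4.3.3) with no covariate. The planned design took each array as the unit, though the labels leave unclear how many cultures lie behind the arrays. On simulated data for treated versus control with 17752 genes, log2 changes of 0.5, 1 and 2 were recovered in 35.8%, 94% and 100% of the genes given them, and 9 of 162 calls were false. The simulated noise was normal and independent between genes, without the low arrays that members share here. Its 162 calls compare with 47 higher and 6 lower in the data, so these rates may overstate recovery here. Every measured member was named, with the pathway component that passed and those whose groups did not overlap, the latter chosen after their values were seen. Members and lists were chosen with earlier results of these data known. Alternatives covered the offset, normalization, filter, probe rule, variance model, weights for arrays, a block for replicate number and arrays left out. Figures were drawn with matplotlib 3.10.9. The number of arrays limits the precision.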

Additional observations from a re-analysis of the deposited data

Results flagged for a closer look

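An array stood apart for a member where its gap to the nearest of the other 4 arrays of its group, divided by the range of the group, exceeded Dixon's 95% critical value of 0.71. This held in 15 of 60 sets of 5 values (25%), where chance gives about 5% in independent sets. The sets share arrays, so they are not independent: 5 of the 15 fell on treated 5, 5 on control 3 and 2 on control 5. The 5% also does not hold for sets with values tied at the lowest level. Among the treated arrays IL1A was such a set, with all but treated 4 at 1.585.

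On treated 5 the log2 level was low for IL23A (3.72), IL32 (3.08), LCN2 (5.94), IRF1 (5.53) and MMP9 (4.48). On control 5 it was low for TNFAIP3 (3.98) and MMP9 (4.03). On control 3 it was low for CXCL16 (5.93), CX3CL1 (5.88), NFKB1 (8.73), NFKBIA (8.64) and IRF1 (3.77). On treated 4 CXCL2 was high (4.83), and so was IL1A (2.19), which was above background on that array alone; IL1A was also high on control 2 (2.04), below background there.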

How the results depend on the processing

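Results were recomputed under 23 alternatives, 2 of them chosen after seeing the data (no arrays numbered 5; no control 3 and no arrays numbered 5). The filter for probes above background on at least 5 arrays left out CCL2, CXCL3, CXCL5, IL1A, IL1B and TNF, and CCL2 and IL1A also had no value on the deposited scale. CCL26 was higher and past the threshold in all 23, the other 29 members passed in none of the alternatives that gave them a value, and the smallest adjusted p among these 29 was 0.164, for NFKB2. The median difference of the members ran from −0.08 with median scaling to 0.06 without treated 5. Of the 30 members, 10 kept 1 sign and 20 took either sign. A change of sign was counted as a reversal where the difference exceeded its SE in either fit: LCN2 changed sign to 0.14 with no arrays numbered 5 and to 0.17 with no control 3 either, where CCL2 was at 0.01, and IRF1 ran from −0.01 to 0.56 with 1 array left out, the former without control 3. The count of pathway components, 1 as reported, was 0 with an offset of 1, the deposited values as they stand, no filter, the replicate block or no arrays numbered 5, and 2 with array weights (IKBKG higher, IL1R1 lower). With 1 array left out it ran from 0 to 1, and without treated 4 the 1 was TNFRSF1B, which was lower. TNFRSF1B was above background on 4 controls and 1 treated array. Its treated values other than that on treated 4 were all at the lowest level (1.585), so that call rests on values without spread. Same-numbered arrays were not treated as pairs, since not every correlation of their deviations from the group means was over 0.1: these were −0.09, 0.19, 0.09, −0.03 and 0.25 over all genes for numbers 1 to 5, and 0.33, 0.37, 0.03, 0.08 and 0.68 over the 23 members above background on all arrays. Over all genes 2 of 5 controls correlated best with their own number. This rule does not show that same-numbered arrays are unrelated, and what they may share was not tested. With replicate number as a block the difference of CCL26 was 0.76 (limma adjusted p = 0.0199), that of IKBKG was 0.81 (limma adjusted p = 0.0756), the member count stayed at 1, and over all genes 40 were higher and 5 lower, against 47 and 6. With that block the SEs of MMP9, IL23A and IRF1 were 0.15, 0.18 and 0.34, against 0.47, 0.45 and 0.37 without it. None of the 3 passed (limma adjusted p = 0.766, 0.707 and 0.672). Dim members limit what can be seen: 6 of the 30 were above background on fewer than 5 arrays. The slide of each array is not given in the sources used here, so it was not fitted as a block, and adding the scanner background back was not run because it needs the columns that match no sample.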
